A study of Homo sapiens with 16 samples.

Results

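A set of 10 regulators of the integrated stress response was followed across 4 treatments of a glioblastoma cell line. The set holds ATF4, DDIT3, ATF3, ATF5, TRIB3, CEBPB, CEBPG, PPP1R15A, NUPR1 and EIF2AK4, taken by gene symbol, and makes up 10 of the 58243 genes in the deposited count table. It was chosen with earlier results of these data known. The material was poly(A) RNA of U-251 MG cells, a long-established line derived from a human glioblastoma. The cells received simvastatin at 0.06 µM with irinotecan at 0.6 µM (the combination), irinotecan at 0.6 µM alone, simvastatin at 0.06 µM alone, or the vehicle DMSO. Treatment began 24 h after seeding and lasted 48 h, and each of the 4 groups held 4 libraries. Simvastatin inhibits HMG-CoA reductase, the rate-limiting enzyme of cholesterol synthesis, and irinotecan is converted in cells into an inhibitor of topoisomerase I, which relaxes DNA. A single cell line, a single time and a single dose of each drug were sampled.

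The integrated stress response begins with kinases that phosphorylate the translation factor eIF2alpha when amino acids run short, proteins misfold or double-stranded RNA or mitochondrial damage is sensed. Most translation then slows, while the mRNA of ATF4, a basic leucine zipper (bZIP) transcription factor, is translated more. ATF4 pairs with other bZIP proteins, switches on genes of amino acid supply and tRNA charging, and also switches on its own feedback regulators. RNA counts record neither the phosphorylation of eIF2alpha nor the ATF4 protein.

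Library totals ran from 24159673 to 32318888 counts, and mitochondrial genes took 2.37% to 4.58% of them. The first principal component of all genes, 25.9% of the variance, held the 8 irinotecan-containing libraries on one side and the other 8 on the other. Marker genes of glioma and astroglia summed to 3209 to 3398 CPM (counts scaled to library size) in combination libraries, 3195 to 3423 in irinotecan libraries, 4013 to 4293 in simvastatin libraries and 4150 to 4415 in DMSO libraries. Epithelial markers summed to 326 to 371 CPM in combination libraries, 384 to 421 in irinotecan libraries, 214 to 229 in simvastatin libraries and 242 to 282 in DMSO libraries, with EPCAM at or below 0.08 CPM and CDH1 at or below 0.34 CPM throughout. Markers of neurons summed to 25.0 to 28.5 CPM in combination libraries, 23.2 to 25.8 in irinotecan libraries, 23.1 to 25.8 in simvastatin libraries and 18.8 to 20.3 in DMSO libraries. Markers of endothelium summed to 1.25 to 1.62 CPM in combination libraries, 0.86 to 1.73 in irinotecan libraries, 0.28 to 0.65 in simvastatin libraries and 0.33 to 0.74 in DMSO libraries, with PECAM1 at or below 0.12 CPM. Those of leukocytes summed to 0.24 to 0.40 CPM in combination libraries, 0.37 to 0.70 in irinotecan libraries, 0.47 to 0.93 in simvastatin libraries and 0.37 to 0.65 in DMSO libraries, with CD3E at 0 counts in every library. Without overlap with DMSO, the glioma sum was thus lower and the endothelial sum higher in both irinotecan-containing groups, the epithelial sum was higher in both and lower with simvastatin, and the neuronal sum was higher in every drug group. Single genes weighed heavily: KRT8, at 205 to 405 CPM, made up most of the epithelial sum, and SYT1, at 13.1 to 22.5 CPM, most of the neuronal sum. VIM, at 1446 to 2032 CPM, and NES, at 833 to 1203 CPM, together made up most of the glioma sum, where GFAP had 90 to 209 CPM. In the endothelial sum VWF had 0.28 to 1.43 CPM, and CDH5 was at or below 0.31 CPM. The part of these marker sums in the results was not tested.

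All 10 regulators passed the filter on low counts. Simvastatin raised 7 of the 10 and lowered none, while it raised 3.89% and lowered 2.11% of the 16647 genes tested. Irinotecan raised 5 and lowered 1, ATF4, against 12.4% of genes higher and 11.7% lower. The combination raised 7 and lowered none, against 15.1% of genes higher and 13.0% lower. A gene was called where its adjusted p in edgeR's quasi-likelihood test was under 0.05. The median log2 fold change of the 10 against DMSO was 0.32 with the combination, 0.15 with irinotecan and 0.41 with simvastatin, and that of all genes was within 0.01 of 0 each time. These 3 comparisons share the DMSO libraries. Because the 10 were chosen with earlier results of these data known, counts of regulators beside shares of all genes are no test of the set. In bulk RNA, fewer cells with a transcript and less transcript per cell cannot be told apart.

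By treatment, the regulators fell into 5 patterns. DDIT3, TRIB3, CEBPB and NUPR1 rose with simvastatin, with irinotecan and with both. ATF3 and CEBPG rose with simvastatin and with the combination. ATF5 rose with irinotecan and with the combination. ATF4 rose with simvastatin and fell with irinotecan, and PPP1R15A and EIF2AK4 were called in none of the 3. The libraries of drug and vehicle did not overlap for 7 regulators with the combination, 6 with irinotecan and 7 with simvastatin, against 26.2%, 23.4% and 10.0% of all genes. The scaling of libraries affected the background: among genes called against DMSO, those higher made up 53.8% with the combination and 51.4% with irinotecan, but 73.4% and 77.8% when libraries were scaled by their totals alone.

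**Figure D1:**
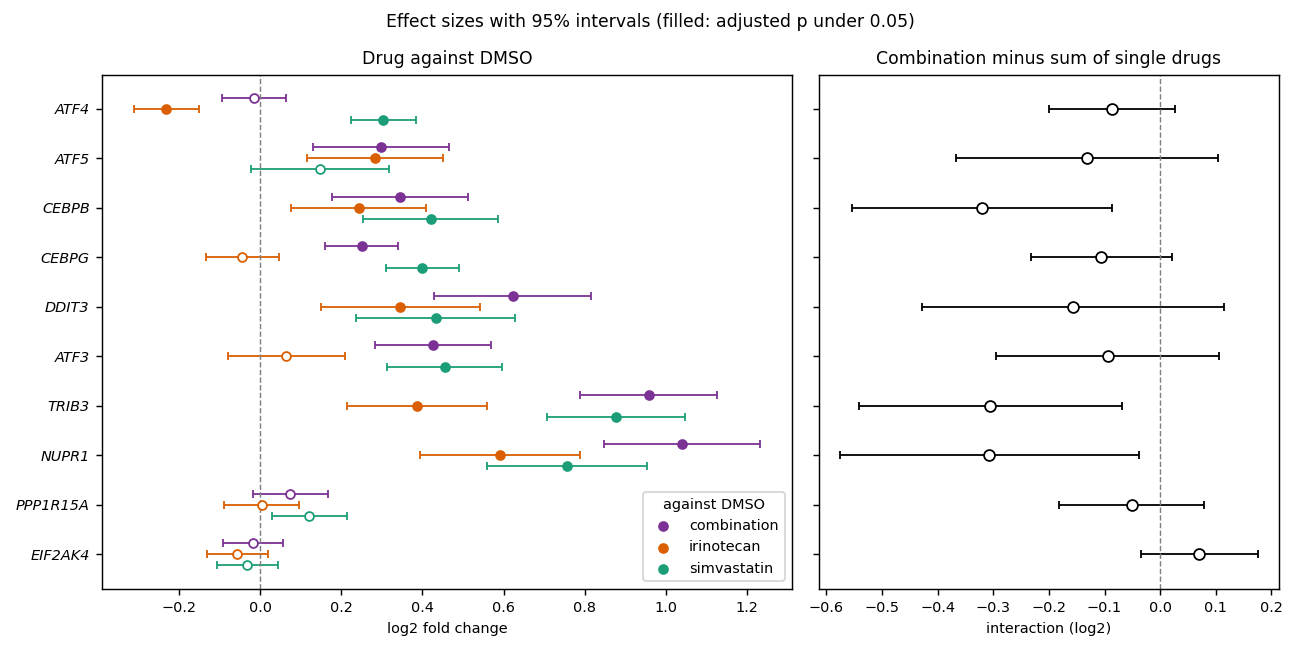
Log2 fold change of each regulator against DMSO (left) and interaction (right), with 95% intervals; filled points had an adjusted p under 0.05. TRIB3 and NUPR1 lie farthest to the right with the combination, at 0.96 and 1.04, ATF4 lies on opposite sides for simvastatin and irinotecan, and no interaction point is filled.

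The regulators differed widely in abundance. Per kilobase of merged exon, ATF4 stood highest in DMSO cells, at 139 CPM per kb, and NUPR1 lowest, at 1.41. Between them came PPP1R15A at 22.6, CEBPG at 13.0, EIF2AK4 at 12.9, CEBPB at 12.2, TRIB3 at 9.64, DDIT3 at 7.63, ATF3 at 6.27 and ATF5 at 3.05 CPM per kb. In this order, from CEBPG down to ATF3, each regulator overlapped the next in its DMSO libraries, so those ranks were not resolved. Merged exons join all annotated transcripts, 5674 bases from 3 transcripts for NUPR1, so the place of NUPR1 depends on that length. Before division by length, NUPR1 averaged 7.98 CPM in DMSO cells, ATF5 9.01 and DDIT3 9.97, and their libraries overlapped.

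**Figure D2:**
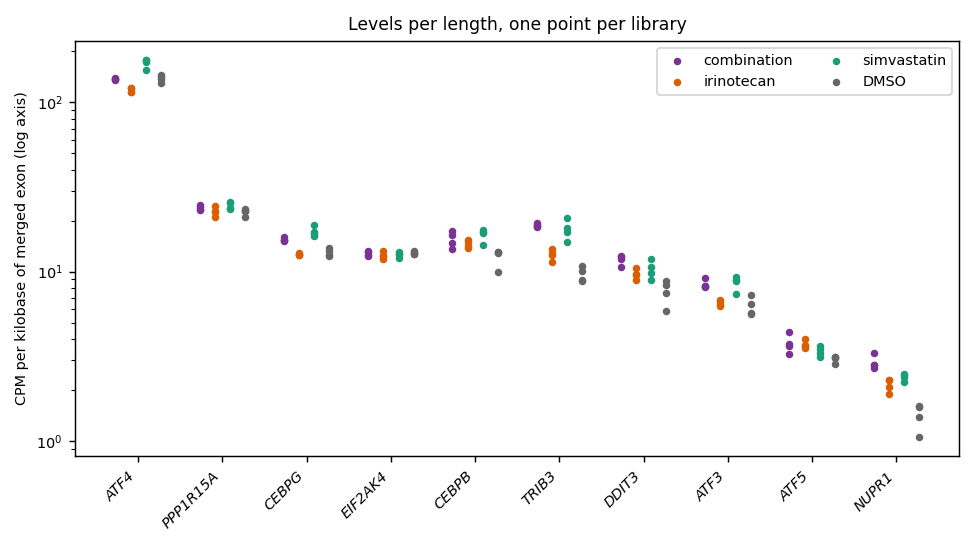
Level of each regulator in CPM per kilobase of merged exon on a log axis, 1 point per library, in the order of the DMSO means. ATF4 lies far above the rest in all groups, at 139 CPM per kb in DMSO cells, and NUPR1 is lowest, at 1.41.

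Of the eIF2alpha kinases, EIF2AK4 (ENSG00000128829, chr15:39934146-40035591, plus strand, 39 merged exons) is the listed regulator. It encodes GCN2, which senses uncharged tRNA. Its level was 147, 155, 157 and 150 CPM in combination libraries, 147, 142, 147 and 158 in irinotecan libraries, 152, 144, 155 and 152 in simvastatin libraries, and 156, 151, 158 and 152 in DMSO libraries. All 4 groups overlapped. The log2 fold change against DMSO was -0.02 ± 0.04 (SE) with the combination, -0.06 ± 0.04 with irinotecan and -0.03 ± 0.04 with simvastatin, with adjusted p of 0.791, 0.321 and 0.765. The 95% intervals ran from -0.09 to 0.06, from -0.13 to 0.02 and from -0.11 to 0.04.

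Among the other kinases and their partners (8 genes), EIF2AK3, which encodes the endoplasmic reticulum stress sensor PERK, changed most. It averaged 39.9 CPM with the combination, 28.8 with irinotecan, 41.3 with simvastatin and 31.1 with DMSO. Its log2 fold change was 0.36 ± 0.05 with the combination (adjusted p = 2.4e-06) and 0.41 ± 0.05 with simvastatin (adjusted p = 1.3e-06), and -0.11 ± 0.05 with irinotecan (adjusted p = 0.12). Simvastatin raised EIF2AK3 alone of the 8, irinotecan changed none in edgeR or DESeq2, with 1 at an unadjusted p under 0.05, and the combination also raised GCN1, the partner of GCN2 (0.14 ± 0.04), and DNAJC3, an inhibitor of eIF2alpha kinases (0.13 ± 0.04). EIF2AK1 and EIF2AK2, the kinases of haem shortage and of double-stranded RNA, were called in none of these comparisons. Without simvastatin replicate 1, simvastatin raised 2 of the 8. In the main fit 12.5% of the 8 were higher with simvastatin and 37.5% with the combination, against 3.89% and 15.1% of all genes. With irinotecan 12.4% of all genes were higher and 11.7% lower. With only 8 genes, these counts are no result about the list.

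ATF4 (ENSG00000128272, chr22:39519695-39522685, plus strand) had 351, 340, 344 and 345 CPM in combination libraries, 305, 307, 287 and 288 CPM in irinotecan libraries, 448, 432, 392 and 449 CPM in simvastatin libraries, and 357, 343, 329 and 365 CPM in DMSO libraries. Every simvastatin library lay above, and every irinotecan library below, all DMSO libraries, while combination and DMSO libraries overlapped. The log2 fold change was -0.23 ± 0.04 with irinotecan (adjusted p = 6.07e-05) and 0.30 ± 0.04 with simvastatin (adjusted p = 4.1e-06). With both drugs it was -0.01 ± 0.04 (adjusted p = 0.831, 95% interval -0.09 to 0.07). The order was thus simvastatin, then the combination and DMSO without a called difference, then irinotecan. The ATF4 pseudogenes in the table, ATF4P1, ATF4P2, ATF4P3 and ATF4P4, had 2, 4, 51 and 165 counts over the 16 libraries, and how reads shared with them were counted is not given in the sources used here.

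CEBPG, a bZIP partner of ATF4 with no transactivation domain of its own (ENSG00000153879, chr19:33373330-33382686, plus strand), had 68.2, 67.0, 67.8 and 70.2 CPM in combination libraries, 54.9, 55.8, 55.6 and 56.6 in irinotecan libraries, 75.2, 71.4, 73.8 and 82.7 in simvastatin libraries, and 61.0, 54.9, 55.0 and 58.6 in DMSO libraries. Simvastatin libraries were highest, combination libraries next, and irinotecan and DMSO libraries overlapped below them. Its log2 fold change was 0.25 ± 0.05 with the combination (adjusted p = 9.06e-05), -0.04 ± 0.05 with irinotecan (adjusted p = 0.558) and 0.40 ± 0.05 with simvastatin (adjusted p = 2.85e-07).

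CEBPB, the C/EBP factor of inflammatory and mesenchymal programmes and another bZIP partner (ENSG00000172216, chr20:50190734-50192689, plus strand, 1 exon), had 34.2, 26.5, 32.3 and 28.9 CPM in combination libraries, 29.9, 29.1, 27.7 and 27.0 in irinotecan libraries, 33.4, 32.9, 28.1 and 34.4 in simvastatin libraries, and 25.6, 19.5, 25.3 and 25.4 in DMSO libraries. No drug library overlapped the DMSO libraries, of which replicate 2 lay below the rest. Against DMSO, the log2 change was 0.34 ± 0.09 with the combination (adjusted p = 0.00388), 0.24 ± 0.09 with irinotecan (adjusted p = 0.0408) and 0.42 ± 0.08 with simvastatin (adjusted p = 0.00273). Without DMSO replicate 2 the irinotecan value was 0.16 (adjusted p = 0.132), and that call was also lost without any 1 of the 4 irinotecan libraries or without simvastatin replicate 2. An antisense gene, CEBPB-AS1, shares 231 exon bases with CEBPB and had 343 counts over the 16 libraries against 12412 for CEBPB.

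ATF5, an ATF4-related bZIP factor tied to the mitochondrial stress response and to survival of glioma cells (ENSG00000169136, chr19:49928702-49933935, plus strand), had 10.7, 13.0, 9.69 and 11.1 CPM in combination libraries, 10.9, 11.8, 10.4 and 10.8 in irinotecan libraries, 10.3, 9.73, 9.25 and 10.7 in simvastatin libraries, and 9.14, 8.40, 9.23 and 9.29 in DMSO libraries. Combination and irinotecan libraries lay above all DMSO libraries, and the lowest simvastatin library lay within them. Its log2 fold change against DMSO was 0.30 ± 0.09 with the combination (adjusted p = 0.00881), 0.28 ± 0.08 with irinotecan (adjusted p = 0.0137) and 0.15 ± 0.09 with simvastatin (adjusted p = 0.414). The combination call was lost without combination replicate 2 (0.21, adjusted p = 0.0685) and the irinotecan call without irinotecan replicate 2 (0.24, adjusted p = 0.0605). ATF5 shares 626 of its 2954 exon bases with NUP62 on the opposite strand, which had 48076 counts over the 16 libraries against 4439 for ATF5. The strand setting of the counting is not given in the sources used here; NUP62 was not called against DMSO in any group.

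**Figure D3:**
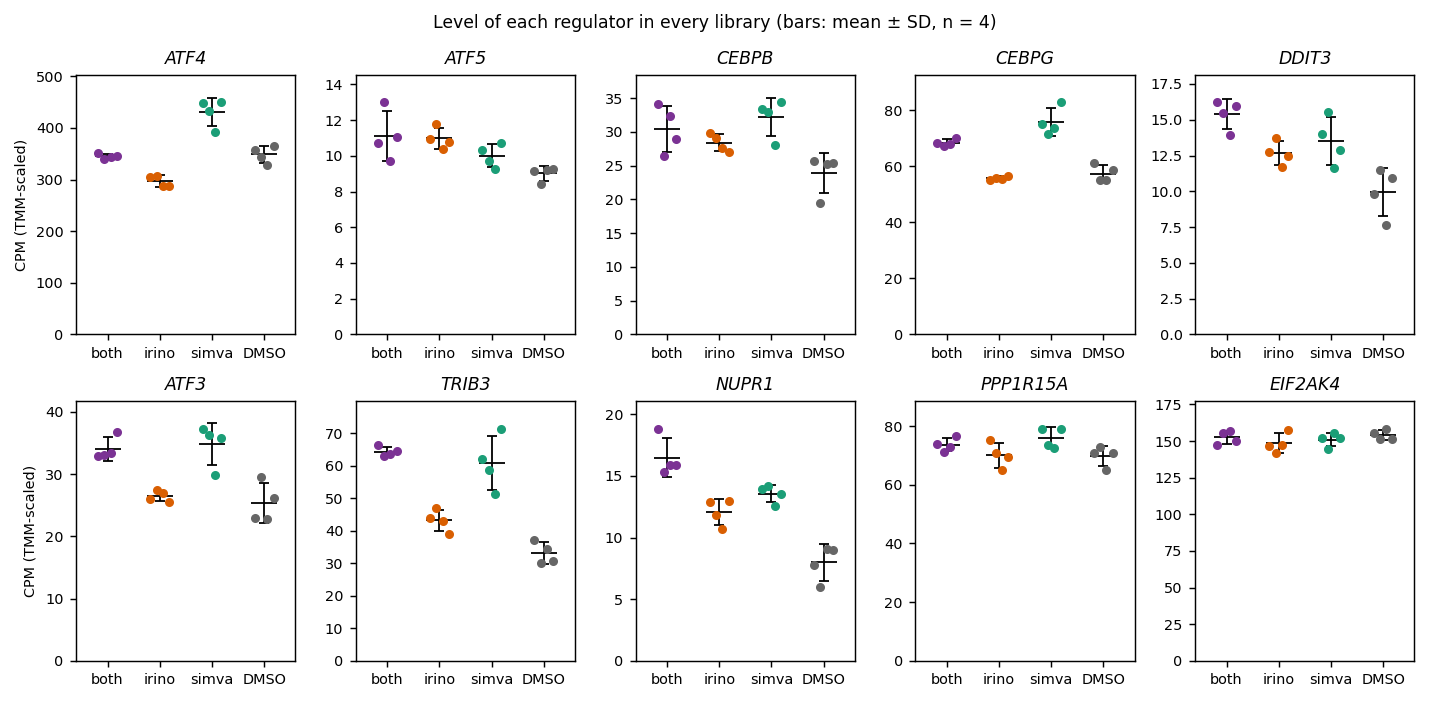
CPM of each regulator in every library, with the mean ± SD of each group (n = 4). The simvastatin and irinotecan libraries of ATF4 sit above and below DMSO, at 392 to 449 and 287 to 307 CPM, and those of EIF2AK4 and PPP1R15A overlap with DMSO.

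DDIT3 encodes CHOP, a bZIP factor of prolonged stress that promotes cell death (ENSG00000175197, chr12:57516588-57521737, minus strand). Its level was 16.2, 15.5, 13.9 and 16.0 CPM in combination libraries, 12.7, 13.7, 11.7 and 12.5 in irinotecan libraries, 14.0, 15.5, 11.6 and 12.9 in simvastatin libraries, and 9.82, 11.5, 7.65 and 10.9 in DMSO libraries. Each drug group lay above DMSO in all 4 libraries, the closest being simvastatin at 11.6 against 11.5 CPM. The change on the log2 scale was 0.62 ± 0.10 with the combination (adjusted p = 1.69e-05), 0.35 ± 0.10 with irinotecan (adjusted p = 0.0108) and 0.43 ± 0.10 with simvastatin (adjusted p = 0.0059). The irinotecan call was lost without DMSO replicate 3 (0.24, adjusted p = 0.057) and without irinotecan replicate 2 (0.30, adjusted p = 0.05). DDIT3 shares 355 of its 1307 exon bases with MARS1, which encodes methionyl-tRNA synthetase on the opposite strand and had 77583 counts over the 16 libraries against 5545 for DDIT3. MARS1 had log2 fold changes of 0.02 with the combination, -0.18 with irinotecan (adjusted p = 0.000714) and 0.28 with simvastatin (adjusted p = 8.03e-06). It thus rose with simvastatin, as DDIT3 did, and fell with irinotecan, where DDIT3 rose; its part in the DDIT3 counts was not tested.

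ATF3, an early stress-induced repressor of the ATF family (ENSG00000162772, chr1:212565334-212620777, plus strand), had 32.8, 33.0, 33.4 and 36.8 CPM in combination libraries, 26.1, 27.4, 27.0 and 25.5 in irinotecan libraries, 37.3, 36.2, 29.8 and 35.8 in simvastatin libraries, and 23.0, 29.5, 22.8 and 26.1 in DMSO libraries. All combination and simvastatin libraries were above DMSO, by the narrowest margin for simvastatin replicate 3, and irinotecan libraries lay among the DMSO ones. In log2 units, the change from DMSO was 0.43 ± 0.07 with the combination (adjusted p = 5.35e-05), 0.07 ± 0.07 with irinotecan (adjusted p = 0.589) and 0.45 ± 0.07 with simvastatin (adjusted p = 9.95e-05).

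TRIB3 is a pseudokinase induced by ATF4 and CHOP that binds AKT and damps ATF4 activity (ENSG00000101255, chr20:362835-397559, plus strand). It had 66.3, 62.9, 63.6 and 64.4 CPM in combination libraries, 44.1, 46.9, 42.9 and 39.0 in irinotecan libraries, 62.2, 58.6, 51.2 and 71.4 in simvastatin libraries, and 37.2, 30.1, 34.5 and 30.7 in DMSO libraries. Simvastatin libraries spanned the tight combination group, irinotecan libraries lay between those and DMSO, and no drug group overlapped DMSO. The log2 fold change was 0.96 ± 0.09 with the combination (adjusted p = 1.34e-07), 0.39 ± 0.09 with irinotecan (adjusted p = 0.00308) and 0.88 ± 0.09 with simvastatin (adjusted p = 2.23e-06), a 1.94-fold, 1.31-fold and 1.84-fold higher level.

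NUPR1 encodes a small stress-induced chromatin protein and was the lowest of the 10 per kilobase of merged exon (ENSG00000176046, chr16:28532708-28539174, minus strand). It had 18.8, 15.4, 15.8 and 15.9 CPM in combination libraries, 12.9, 11.8, 10.7 and 12.9 in irinotecan libraries, 14.0, 14.2, 12.6 and 13.5 in simvastatin libraries, and 7.81, 5.96, 9.11 and 9.03 in DMSO libraries. Combination libraries were above every other library, DMSO libraries were below every other, and the single-drug groups overlapped. Against DMSO, the log2 change was 1.04 ± 0.10 with the combination (adjusted p = 2.15e-09), 0.59 ± 0.10 with irinotecan (adjusted p = 4.41e-05) and 0.76 ± 0.10 with simvastatin (adjusted p = 4.46e-06). The combination level was 2.06-fold that of DMSO.

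PPP1R15A encodes GADD34, the stress-induced subunit that directs protein phosphatase 1 to eIF2alpha and so ends the response (ENSG00000087074, chr19:48872392-48876057, plus strand). It had 74.0, 71.2, 72.9 and 76.5 CPM in combination libraries, 75.4, 70.7, 64.9 and 69.4 in irinotecan libraries, 79.1, 73.7, 72.4 and 79.2 in simvastatin libraries, and 70.7, 72.9, 65.0 and 71.0 in DMSO libraries. The groups overlapped throughout. Its log2 fold change was 0.07 ± 0.05 with the combination (adjusted p = 0.257), 0.00 ± 0.05 with irinotecan (adjusted p = 0.972) and 0.12 ± 0.05 with simvastatin (adjusted p = 0.143). With libraries scaled by their totals alone, the combination value was 0.13 (adjusted p = 0.0326).

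Of 14 genes for eIF2, its exchange factor eIF2B and the phosphatase, the combination raised 3 and lowered 2, irinotecan raised 0 and lowered 2, and simvastatin raised 2 and lowered 1. PPP1CB, a catalytic subunit of protein phosphatase 1, fell in all 3 comparisons, by 0.52 with the combination, by 0.40 with irinotecan and by 0.19 with simvastatin on the log2 scale. The shares called with the combination, 21.4% higher and 14.3% lower, and with irinotecan, 14.3% lower, were near those of all genes (15.1% and 13.0%, and 11.7%), so these counts are no result about the list. EIF2S2, the beta subunit of eIF2, rose by 0.15 ± 0.04 with the combination and by 0.22 ± 0.04 with simvastatin. With libraries scaled by their totals alone, the combination raised 7 and lowered 1 of the 14, and irinotecan raised 4 and lowered 1. Fits that left out a library gave 1 (without DMSO replicate 2) to 3 higher and 1 to 2 lower with the combination, and 1 to 2 lower with irinotecan.

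The combination was then set against each drug alone. Against irinotecan, it raised 5 of the 10 regulators and lowered none, while 4.45% of all genes were higher and 1.50% lower; 6 regulators did not overlap, against 13.1% of genes. TRIB3 had the largest of these changes, 0.57 ± 0.08 (adjusted p = 2.58e-04), followed by NUPR1 at 0.45 ± 0.09, ATF3 at 0.36 ± 0.07, CEBPG at 0.29 ± 0.05 and ATF4 at 0.22 ± 0.04. DDIT3 was higher in all 4 combination libraries, at 13.9 to 16.2 CPM against 11.7 to 13.7 CPM with irinotecan, but its change of 0.28 ± 0.10 was not called (adjusted p = 0.088).

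Against simvastatin, the combination raised NUPR1 (0.28 ± 0.09, adjusted p = 0.024) and lowered ATF4 (-0.32 ± 0.04, adjusted p = 4.6e-07) and CEBPG (-0.15 ± 0.05, adjusted p = 0.0141). Over all genes 13.9% were higher and 11.7% lower, and 3 of the regulators did not overlap, against 25.8% of genes, so the share of regulators called and set apart was close to the background. The CEBPG call was lost without simvastatin replicate 4 (-0.10, adjusted p = 0.0944), and the NUPR1 call without simvastatin replicate 3 (0.25, adjusted p = 0.0683) or combination replicate 1 (0.21, adjusted p = 0.122). With libraries scaled by their totals alone, CEBPG was not called either (-0.10, adjusted p = 0.105).

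Irinotecan set against simvastatin gave lower levels of ATF4 (-0.53 ± 0.04, adjusted p = 9.98e-12), TRIB3 (-0.49 ± 0.08), CEBPG (-0.44 ± 0.05) and ATF3 (-0.39 ± 0.07), and raised none of the 10. Of all genes, 15.4% were higher and 14.9% lower in this comparison. The 4 called regulators were also the 4 whose libraries did not overlap, against 28.8% of genes. DDIT3, ATF5, NUPR1 and CEBPB were not called between the single drugs, with 95% intervals from -0.28 to 0.10, from -0.03 to 0.30, from -0.35 to 0.02 and from -0.34 to -0.01.

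The interaction, which is how far the combination lay from both single-drug log2 changes added together, was called for none of the 10, and for 0.0120% of all genes. That share depends on leaving replicate numbers out of the fit. In the 12 numbered libraries, a block for the number gave 190 genes called, against 1 without it, and no regulator was called with the block. A negative value was found for 9 regulators, against 47.8% of all genes, and 3 had an unadjusted p under 0.05 in edgeR, against 6.01% of all genes: CEBPB at -0.32 ± 0.12, TRIB3 at -0.31 ± 0.12 and NUPR1 at -0.31 ± 0.14, each with an adjusted p of 0.822. In DESeq2 no regulator was called either. The interaction uses the same DMSO libraries as both single-drug changes, and the 10 were chosen with earlier results of these data known. The count of negative values is therefore no test of the set. For CEBPB, DMSO replicate 2 stood at 19.5 CPM, against 25.3 to 25.6 CPM in the other DMSO libraries. For TRIB3 the combination gave 0.96 where the single-drug changes summed to 1.26, and for NUPR1 it gave 1.04 where they summed to 1.35. CEBPB had 0.34 against a sum of 0.66, and DDIT3 had 0.62 against 0.78. For ATF4 the opposite single-drug changes summed to 0.07, and the combination stood at -0.01.

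The genes that the pathway acts on were followed next, in lists of known targets of ATF4 and CHOP that were chosen with earlier results of these data known. Their counts stand against 15.1% of all genes higher and 13.0% lower with the combination, 12.4% and 11.7% with irinotecan, and 3.89% and 2.11% with simvastatin. Of 20 tested genes of amino acid supply, the combination raised 15 and lowered 1 (median log2 fold change 0.23), irinotecan raised 1 and lowered 8 (median -0.11), and simvastatin raised 19 and lowered none (median 0.46). MTHFD2, a mitochondrial folate enzyme, rose in all 3, by 0.62 ± 0.04 with the combination, 0.25 ± 0.04 with irinotecan and 0.56 ± 0.04 with simvastatin. CTH, which makes cysteine from cystathionine, rose by 0.88 ± 0.08 with the combination and by 0.99 ± 0.08 with simvastatin. BCAT1, a branched-chain aminotransferase, fell by 0.42 with irinotecan, and so did SLC7A11, the cystine carrier, by 0.36. Against simvastatin, irinotecan lowered all 20 (median -0.53), where 14.9% of all genes were lower and 15.4% higher.

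The 12 aminoacyl-tRNA synthetases, which charge tRNA with amino acids, gave 7 higher and none lower with the combination (median 0.15), 1 higher and 3 lower with irinotecan (median -0.05) and 11 higher and none lower with simvastatin (median 0.28). GARS1, the glycyl-tRNA synthetase, rose by 0.35 ± 0.04 with the combination and by 0.45 ± 0.04 with simvastatin. WARS1, the tryptophanyl-tRNA synthetase, rose by 0.51 ± 0.04 with the combination, by 0.22 ± 0.04 with irinotecan and by 0.42 ± 0.04 with simvastatin. Scaling by totals alone turned the irinotecan split of the synthetases to 3 higher and 1 lower, and left 2 higher and 5 lower among the amino acid genes.

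Of 22 tested stress outputs of ATF4 and CHOP, the combination raised 15 and lowered 2 (median 0.31), irinotecan raised 12 and lowered 5 (median 0.19), and simvastatin raised 16 and lowered 1 (median 0.44). INHBE, an activin subunit, rose by 2.71 ± 0.15 with the combination and by 2.72 ± 0.15 with simvastatin. It averaged 9.56 CPM with the combination, 2.96 with irinotecan, 9.65 with simvastatin and 1.45 with DMSO, so its mean was also higher with irinotecan alone. CHAC1, which degrades glutathione, rose by 1.24 ± 0.08 with simvastatin. Its mean was 25.6 CPM with the combination, 14.1 with irinotecan, 30.4 with simvastatin and 12.8 with DMSO. GDF15, a secreted stress cytokine, averaged 34.9 CPM with the combination, 24.7 with irinotecan, 21.0 with simvastatin and 9.03 with DMSO, and rose by 1.94 ± 0.10 with the combination and by 1.45 ± 0.10 with irinotecan. STC2, a secreted glycoprotein, and VEGFA, the vascular growth factor, fell with irinotecan by 0.55 and 0.79, whereas STC2 rose by 1.00 ± 0.05 with simvastatin. VEGFA averaged 324 CPM with the combination, 295 with irinotecan, 635 with simvastatin and 509 with DMSO, so its mean was higher with simvastatin.

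Among 29 other bZIP factors, with which ATF4 and CHOP can pair or compete, the combination raised 7 and lowered 4 (median -0.03), irinotecan raised 3 and lowered 6 (median -0.06), and simvastatin raised 5 and lowered none (median 0.07). With the combination 24.1% of the 29 were higher and 13.8% lower, with irinotecan 10.3% and 20.7%, and with simvastatin 17.2% were higher. The share lower with the combination and the share higher with irinotecan were near those of all genes and are no result about the list. With libraries scaled by their totals alone, irinotecan raised 5 and lowered 4 of the 29. JDP2, a repressor that binds AP-1 sites, rose by 0.94 ± 0.10 with the combination, by 0.59 ± 0.11 with irinotecan and by 0.60 ± 0.11 with simvastatin. JUN fell by 0.37 with the combination and by 0.46 with irinotecan, and NFIL3 rose by 0.49 ± 0.06 with the combination and by 0.64 ± 0.06 with simvastatin.

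The ATF6 and XBP1 arm of the unfolded protein response, whose 21 genes serve folding in the endoplasmic reticulum, gave 7 higher and 3 lower with the combination (median 0.03), 1 higher and 11 lower with irinotecan (median -0.12) and 7 higher with none lower with simvastatin (median 0.07). HERPUD1, a degradation factor, rose by 0.47 ± 0.05 with the combination and by 0.72 ± 0.05 with simvastatin. HSPA5, the chaperone BiP, rose by 0.38 ± 0.04 with simvastatin and fell by 0.27 with irinotecan. Of the 21, 33.3% were higher and 14.3% lower with the combination, against 15.1% and 13.0% of all genes. With irinotecan 4.76% were higher and 52.4% lower, against 12.4% and 11.7%, and with simvastatin 33.3% were higher, against 3.89%. The share lower with the combination was near that of all genes and is no result about the list. With libraries scaled by their totals alone, irinotecan lowered 4 of the 21. Some lists share genes, so their counts are not independent. XBP1 and ATF6 are also among the other bZIP factors, and DNAJC3 is also among the kinases and their partners. JDP2 is in both the bZIP factors and the stress outputs.

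**Figure D4:**
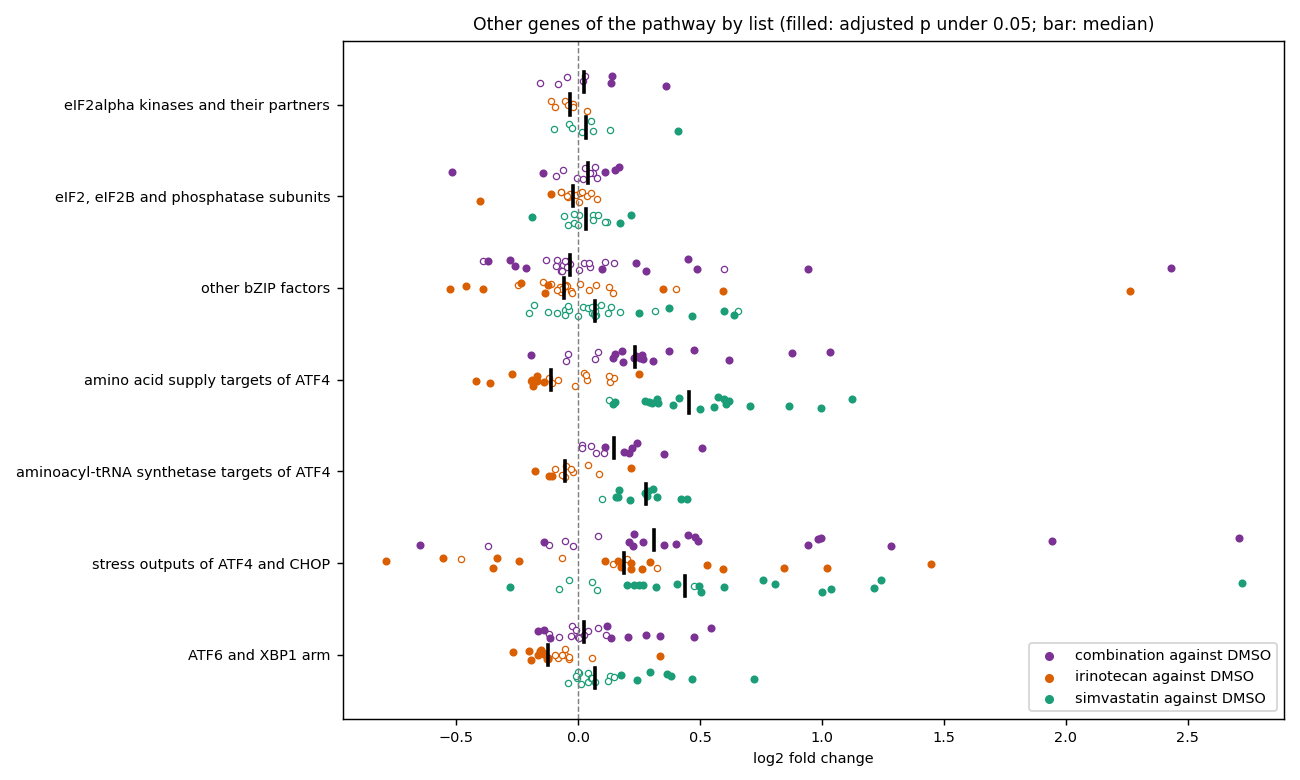
Log2 fold change against DMSO of each gene in 7 lists of the pathway; filled points had an adjusted p under 0.05 and bars mark list medians. For amino acid supply the simvastatin points centre on 0.46, the combination points on 0.23 and the irinotecan points on -0.11.

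Promoter windows of 300 bases, most of each upstream of an annotated start site, were taken from RefSeq (GRCh38.p14). They covered 9 of the 10 regulators, and NUPR1 had no window and was not searched. The 9 had 18 windows, and all 27305 genes with a window had 35116, so these regulators had more windows per gene than genes at large. The C/EBP-ATF element TGATGNAA, the composite site that ATF4 binds with a C/EBP partner, was searched on both strands, and 4.46% of the 27305 genes with a window held it. Among the regulators it was found for CEBPG and ATF3. The cyclic AMP response element TGACGTCA, present for 2.25% of genes, was found for PPP1R15A. The AP-1-like pattern TGANTCA, with any base at its centre, was present for 9.37% and was found for DDIT3, ATF5 and EIF2AK4. The match read TGACTCA, the AP-1 form, in DDIT3 and ATF5, and TGATTCA, which is not that form, in EIF2AK4. CCACG, a short part of the ER stress element, was found for 6 of the 9 and for 42.1% of genes, and no match of the 4 motifs overlapped another in the regulators' windows. The sequences show how the matches read in CEBPG and ATF3, which rose with simvastatin, and in PPP1R15A, which was not called, with the match in capitals.
CEBPG, chr19:33374051-33374098, plus strand, intron: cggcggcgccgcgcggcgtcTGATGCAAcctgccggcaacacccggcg
ATF3, chr1:212565196-212565243, plus strand, upstream of the gene: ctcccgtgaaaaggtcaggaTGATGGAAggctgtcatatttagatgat
PPP1R15A, chr19:48872343-48872390, plus strand, upstream of the gene: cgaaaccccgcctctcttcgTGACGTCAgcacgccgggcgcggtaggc

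Counted from the RefSeq start site, the CEBPG match begins at position -42, the ATF3 match at -191 and the PPP1R15A match at -58. TRIB3, with the largest simvastatin change of the 10, had no TGATGNAA in its windows, nor did ATF4, DDIT3 or CEBPB. The same element was found for 7 of 10 aminoacyl-tRNA synthetases with a window, 6 of 15 amino acid supply genes, 3 of 18 stress outputs and 1 of 21 genes of the ATF6 and XBP1 arm. Of those, 4 called higher with simvastatin were chosen after their values were seen and are shown as short sites, with the element in capitals; in GARS1, IARS1 and CHAC1 it lies on the other strand and reads as its reverse complement.
GARS1, chr7:30594835-30594862, plus strand, non-coding exon: tacgcggcgaTTTCATCAtgctccgagc
IARS1, chr9:92293693-92293720, minus strand, non-coding exon: tttcagcgcgTTGCATCAcctccgtgcg
CHAC1, chr15:40953252-40953279, plus strand, non-coding exon: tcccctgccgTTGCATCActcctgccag
JDP2, chr14:75427996-75428023, plus strand, intron: tagccggggcTGATGCAAcccgtcccgc

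IARS1, CHAC1, JDP2 and CEBPG share the letters TGATGCAA or their reverse complement, while ATF3 has TGATGGAA and GARS1 TGATGAAA in reverse complement. These are matches of letters in windows, not measured binding.

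For regulators with a log2 fold change of at least 0.5 against DMSO, the genes with the most similar 3 changes were sought by Euclidean distance. NUPR1 lay closest to SESN2, a stress-induced protein that restrains mTOR (distance 0.0997), then KDELR3 (0.168) and TVP23C (0.169). TRIB3 also lay closest to SESN2 (0.158), then TVP23C (0.201) and SLFN5 (0.244). SESN2 changed by 0.98 with the combination, 0.53 with irinotecan and 0.81 with simvastatin. For DDIT3 the closest were SYT14 (0.0855), PLD6 (0.0954) and SNAP25 (0.108), the last of which is among the neuronal markers. The distances rest on 3 fold changes that share the DMSO libraries.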

How the data were processed

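The authors deposited raw counts, whole numbers per gene for 58243 genes and 16 libraries of poly(A) RNA. Per the submitters' processing notes, FastQC, STAR 2.7.1, GRCh38 and DESeq2 were used; the sources used here do not give the annotation release, counting tool or strand setting. Totals were 24159673 to 32318888 counts, and p-values measure the spread between libraries, which may be technical, since nothing says that they came from separate cultures. The library without a number in each group is called replicate 4. Within groups, the chi-squared of library pairs divided by its degrees of freedom was 2.58 to 14.7, so none was a copy.

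Tests were run with edgeR 4.0.16 in R 4.3.3. Genes were kept by filterByExpr (minimum count 10, minimum total 15), leaving 16647. Robust quasi-likelihood models with TMM scaling took 1 term per group over all 16 libraries, and 7 contrasts were tested two-sided. The call threshold was 0.05 for p adjusted by Benjamini and Hochberg over every gene tested. Errors are standard errors from the fold change and its F statistic. Intervals are the change ± 1.96 standard errors, nominally 95%, so an interval can exclude 0 where the test gave p over 0.05. Levels are CPM with TMM-scaled library sizes, except for the cell type markers, whose levels and sums are CPM from library totals alone. GENCODE 29 (GRCh38), with 57980 of the genes, supplied exon lengths and coordinates. Promoters came from RefSeq (GRCh38.p14). Tests were tried on simulated data.

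Named genes were all 10 regulators, up to 4 genes of each pathway list with the smallest p in a comparison, and up to 3 genes with the nearest fold changes for regulators at 0.5 or more, among genes averaging 1 log2 CPM or more. IARS1 and others shown for their promoters were chosen after their values were seen. The members and lists were chosen with earlier results of these data known. The alternatives tried were median-ratio size factors, DESeq2 1.42.0, library totals alone, no filter, a threshold of 0.01, the compared groups alone, the 12 numbered libraries with and without a replicate block, and leaving out each library.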

Additional observations from a re-analysis of the deposited data

Results flagged for a closer look

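Of the 40 groups of 4 libraries formed by the 10 regulators and 4 treatments, 4 held a library far from the other 3, and chance gives about 1 in 20. ATF3 stood at 36.8 CPM in combination replicate 4, against 32.8 to 33.4 CPM in the others. NUPR1 stood at 18.8 CPM in combination replicate 1, against 15.4 to 15.9 CPM. In DMSO replicate 2, ATF5 stood at 8.40 CPM, against 9.14 to 9.29 CPM, and CEBPB at 19.5 CPM, against 25.3 to 25.6 CPM.

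DDIT4, an ATF4 target that restrains mTOR, had an interaction of -0.44 ± 0.08 on the log2 scale (adjusted p = 0.0369 in edgeR), so its effect of simvastatin differed with irinotecan present. It averaged 52.8 CPM with the combination, 42.5 with irinotecan, 90.4 with simvastatin and 53.5 with DMSO. The call was lost in 11 of the 16 fits that left out a library.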

How the results depend on the processing

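No regulator changed direction under any alternative while called. DESeq2 and median-ratio size factors left every count of called regulators within 1.5 times. The interaction was called for 2 genes, and for 4 in DESeq2 and 14 without the filter on low counts, where 1 regulator was called lower, TRIB3 (-0.32, adjusted p = 0.0415). Library totals alone left 1 regulator lower between the combination and simvastatin; higher genes then made up 62.9% of those called between the combination and irinotecan (74.8% with TMM), 73.4% between the combination and simvastatin (54.1%) and 72.6% between irinotecan and simvastatin (50.8%). At a threshold of 0.01, irinotecan raised 2 regulators, the combination against simvastatin raised 0 and lowered 1, and the genes called were 3032 for the combination, 2586 for irinotecan and 558 for simvastatin against DMSO, 529 and 2681 for the combination against irinotecan and simvastatin, and 0 for the interaction.

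The deviations of same-numbered libraries correlated at -0.06 to 0.20, with 16 of 18 pairs above 0 and 4 over 0.1, against -0.16 to 0.0975 in the other 36 pairs, and 8 of 12 numbered libraries correlated best with their own number. That is a hint of pairing from the data and not from the design. Not every pair was over 0.1, an arbitrary cut-off, and the main fit did not take the numbers as pairing. Whether the libraries were paired is not known. With the replicate block, irinotecan lowered 2 regulators (also EIF2AK4, -0.09, adjusted p = 0.0471), the combination against simvastatin raised 2 (also TRIB3, 0.17, adjusted p = 0.019), and 2016 genes were called between the combination and irinotecan and 190 in the interaction, against 989 and 2 in the fit of all 16 libraries without it. The same 12 libraries without the block gave 513 genes for simvastatin, 707 between the combination and irinotecan, 1 for the interaction, and 0 regulators higher and 1 lower between the combination and simvastatin.

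Leaving out each library in turn gave 3998 to 4828 genes called for the combination, 3393 to 4187 for irinotecan and 664 (without simvastatin replicate 4) to 1224 for simvastatin against DMSO. It gave 676 to 1113 for the combination against irinotecan, 3479 to 4370 against simvastatin, 4438 to 5135 for irinotecan against simvastatin and 0 to 9 for the interaction. The regulators raised numbered 6 to 7 for the combination, 2 (without irinotecan replicate 2) to 5 for irinotecan and 7 for simvastatin, 5 to 6 for the combination against irinotecan and 0 to 1 against simvastatin, where 1 to 2 were lowered. Irinotecan against simvastatin lowered 4 to 6.

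DDIT3 between the combination and irinotecan was called without the filter (adjusted p = 0.0352), from the compared groups alone (0.0218), with the block (0.0314) and without DMSO replicate 3 (0.0398). The causes of these shifts were not tested. DDIT3 and NUPR1, which with ATF5 had the fewest counts, had the widest intervals against DMSO.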
